A study of Mus musculus with 23 samples.

Results

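Expression of 10 genes of Toll-like receptor 4 (TLR4) and NF-kB signalling was followed in the mouse ileum: *Tlr4*, *Tlr2*, *Tlr5*, *Cd14*, *Ly96*, *Myd88*, *Nfkbia*, *Tnfaip3*, *Tnf* and *Il6*. They were chosen by name, with every array probe whose gene name in the scanner files is one of them, which gave 17 probes. All 10 genes were among the 17727 genes tested, through 16 of the 17 probes. Another *Tlr4* probe, the dimmest, was above background on 2 of 23 arrays and was not tested. Each array held the ileum RNA of a single male mouse on the C57Bl6/J background, and the 4 groups were wild-type mice given corn oil (WT CONT, n = 6), wild-type mice given pregnenolone 16α-carbonitrile in corn oil (WT PCN, n = 5), and mice lacking the pregnane X receptor under the same treatments (*Pxr*-/- CONT, n = 6, and *Pxr*-/- PCN, n = 6). PCN, a rodent ligand of PXR, was injected into the abdomen at 100 mg/kg once a day on 4 days, and tissue was taken at ZT 6, 6 h after the final dose. CONT mice received corn oil alone. All mice were acclimatized for 2 weeks. WT mice were bought at 6 weeks of age, whereas *Pxr*-/- mice came from a colony bred in house for 10 years, so genotype and breeding origin cannot be told apart in these data. The age of the *Pxr*-/- mice is not given in the sources used here.

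TLR4 is the cell-surface sensor of bacterial lipopolysaccharide. CD14 hands the lipopolysaccharide to MD-2, the product of *Ly96*, which sits on TLR4, and the adaptor MYD88 then passes the signal through kinases to NF-kB. NF-kB turns on cytokine genes such as *Tnf* and *Il6* together with its own brakes, *Nfkbia* (IκBα, which holds NF-kB in the cytoplasm) and *Tnfaip3* (A20, a ubiquitin-editing enzyme). TLR2 senses bacterial lipopeptides and TLR5 senses flagellin. PXR is reported to restrain TLR4 in the gut, so the question put to the data was whether these genes differed between *Pxr*-/- and WT mice without and with PCN.

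The probes themselves matter for *Tlr4* and *Ly96*. In the array annotation (mm9, plus strand) the *Tlr4* probe with the highest mean signal lies at chr4:66591199-66591258 and is assigned to an Ensembl transcript. The probe designed to the RefSeq mRNA of *Tlr4* lies at chr4:66503724-66503782. A distance of 87.4 kb separates them, and the whole *Tlr4* gene spans 19.0 kb in RefSeq (GRCm38.p6). Bases 1 to 30 of both 60-base probes are shown so that they can be searched again:
*Tlr4* distant probe: tcttccatagtttgtgcttcatgtccctgc
*Tlr4* RefSeq mRNA probe: tgtgatagggctttaaatagttgagctaat

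Over the 23 arrays these *Tlr4* probes had a Pearson correlation of -0.04, whereas the RefSeq mRNA probe and the untested one, designed to the same mRNA, had one of 0.56. The untested probe was above background on only 2 of 23 arrays, so the value of 0.56 carries little weight. *Ly96* also has a pair of probes on chromosome 1 (mm9, plus strand), at chr1:16699612-16699671 and chr1:16678610-16678669. The probe with the highest signal holds an unbroken AC repeat of 31 bases. Its bases 11 to 40 are shown with the repeat in capitals, and bases 1 to 30 of the other probe for contrast:
*Ly96* repeat probe: atgctgaatACACACACACACACACACACA
*Ly96* other probe: tcgacgctgctttctcccatattgactgaa

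The correlation between the *Ly96* probes was -0.14. The paired probes of *Cd14*, *Tnf*, *Il6* and *Tlr5* correlated at 0.96, 0.95, 0.91 and 0.67. All of these correlations are descriptions across arrays that include the group differences. Because the rule takes the brightest probe first, both probes of *Tlr4* and *Ly96* are given throughout.

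Levels are quantile-normalized log2 median signals, and differences are on the same log2 scale. A gene was called when its brightest tested probe had an adjusted p of at most 0.05 in limma and a fold change above 1.5. Between 60.9% and 67.3% of probes were above background per array, and the arrays fell in 2 wash batches and on 8 slides. In bulk tissue, fewer cells of a type and less RNA per cell cannot be told apart. Ileal enterocyte markers, 8 of 8 tested, had a mean level of 15.73 to 16.26 on all arrays. The *Nr1i2* probe, for the PXR gene itself, read 12.13 ± 0.23 (SD, n = 6) in WT CONT and 11.72 ± 0.30 in *Pxr*-/- CONT (n = 6). Whether this probe lies in the deleted part is not given in the sources used here, so it does not check the labels. The PXR target *Cyp3a11*, a drug-metabolizing cytochrome P450, rose with PCN by 3.53 (SE 0.32, adjusted p = 1.21e-06) in WT mice, and its difference was -0.05 in *Pxr*-/- mice. Of the 4 PXR targets tested, 4 were called higher with PCN in WT and 1 in *Pxr*-/- mice. In *Pxr*-/- mice 3 of the 4 were higher, each at an unadjusted p under 0.05 in limma, with a median over the 4 of 0.82 and a maximum of 1.58. *Cyp2c55*, another PXR target, was lower in *Pxr*-/- CONT than in WT CONT with a log2 difference of -4.63 (fold 24.7, adjusted p = 8.6e-06).

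None of the 10 genes was called between *Pxr*-/- and WT mice, either without or with PCN. Without PCN, 0 of 10 were called by limma, against 0.214% of all genes tested, and 2 of 10 had an unadjusted p under 0.05: *Tlr4* through its distant probe and *Tlr5*. With PCN, 0 of 10 were called, against 0.542% of all genes, and 3 had an unadjusted p under 0.05: *Tlr5*, *Nfkbia* and *Tnf*. The median difference of the 10 genes was 0.15 without PCN and -0.07 with PCN, beside medians of -0.00315 and 0.0119 over all genes. Both counts of 0 are as low as the background shares, so they are no result about these genes in particular.

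For the RefSeq mRNA probe of *Tlr4*, WT CONT arrays lay between 6.19 and 6.66 (median 6.47) and *Pxr*-/- CONT arrays between 6.31 and 6.69 (median 6.61). The WT PCN arrays read 6.64, 6.67, 6.49, 6.83 and 6.87, and the *Pxr*-/- PCN arrays lay between 6.61 and 6.97 (median 6.81). Knockout and WT arrays overlapped under both treatments. The genotype difference was 0.10 without PCN (95% interval -0.08 to 0.28, adjusted p = 0.837) and 0.11 with PCN (-0.08 to 0.31, adjusted p = 0.966). On this probe the intervals reached a rise in the knockout of 0.31, which sets no maximum for *Tlr4*. With PCN the probe differed by 0.24 in WT mice (adjusted p = 0.261) and by 0.26 in *Pxr*-/- mice (adjusted p = 0.0989), neither called. The PCN differences of the 2 genotypes differed by 0.02 (-0.25 to 0.28).

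The distant *Tlr4* probe gave another picture. WT CONT arrays lay between 8.27 and 8.58 (median 8.42), and *Pxr*-/- CONT arrays between 8.44 and 8.88 (median 8.64). The WT PCN arrays read 8.75, 9.04, 8.78, 8.28 and 8.61, and *Pxr*-/- PCN arrays lay between 8.35 and 8.73 (median 8.49), so the genotypes again overlapped. The knockout was 0.22 higher than WT without PCN (0.02 to 0.42, unadjusted p = 0.0319, adjusted p = 0.499) and 0.16 lower with PCN (-0.37 to 0.05, adjusted p = 0.895). The change of sign between treatments had an unadjusted p of 0.0129 and an adjusted p of 0.996. In the deposited table, normalized by the authors, the genotype differences with PCN were -0.16 on this probe and 0.11 on the RefSeq mRNA probe. A statement on *Tlr4* with PCN would thus take its sign from the choice of probe.

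The partners of TLR4 differed little. *Cd14*, which ranged from 9.56 to 10.65 over the 23 arrays, differed between genotypes by 0.10 without PCN (-0.20 to 0.41) and by 0.07 with PCN (-0.25 to 0.39). Its PCN differences were 0.30 in WT (adjusted p = 0.463) and 0.27 in *Pxr*-/- mice (adjusted p = 0.324). *Ly96* had genotype differences of 0.17 and 0.07 on the repeat probe and of -0.24 and -0.20 on the other, without and with PCN, with adjusted p values of 0.59 to 1.00. *Myd88* was the steadiest member: its group means lay between 11.44 and 11.53, and its genotype differences were 0.03 (-0.12 to 0.17) and 0.09 (-0.06 to 0.24).

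**Figure D1:**
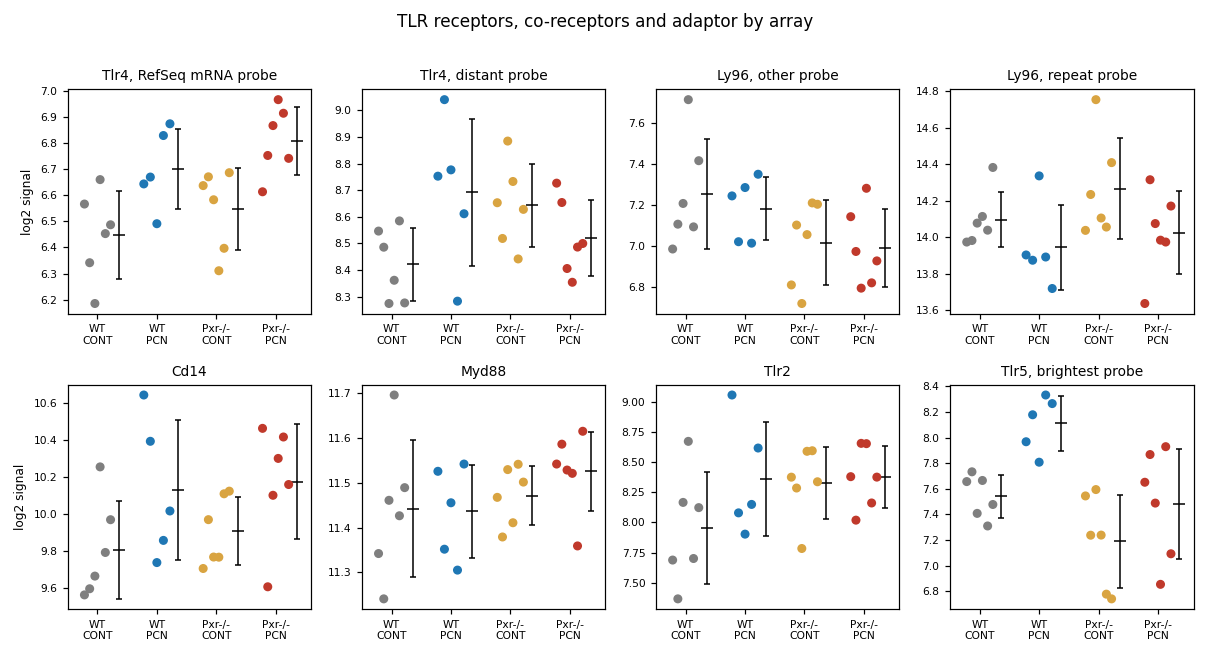
Log2 signal (y axis, a separate scale in each panel) of TLR receptor, co-receptor and adaptor probes in the 4 groups (x axis). Points are arrays and bars are mean ± SD (n = 6, and n = 5 for WT PCN). The genotypes overlap for both *Tlr4* probes, while WT PCN lies highest for *Tlr5*.

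Among the other receptors, *Tlr5* had the clearest difference between genotypes under PCN. It passed the adjusted p threshold on the dimmer of its probes and not on the brightest. On the second *Tlr5* probe the WT PCN arrays read 6.34, 6.34, 6.12, 6.41 and 6.27, and the *Pxr*-/- PCN arrays lay between 5.64 and 6.09 (median 5.85). WT CONT arrays lay between 5.40 and 5.99 (median 5.87) and *Pxr*-/- CONT arrays between 5.40 and 5.75 (median 5.62). The WT PCN arrays thus lay above every array of the other groups. The knockout was lower with PCN by a difference of -0.44 (SE 0.090, adjusted p = 0.0184, lower in 6 of 6 arrays), and PCN raised the probe in WT mice by 0.49 (SE 0.090, adjusted p = 0.00474, higher in 5 of 5). Both folds, 1.36 and 1.4, were under the threshold of 1.5, so neither was called.

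Background subtraction widened these differences. On the processed signal they were -0.87 (adjusted p = 0.0123) and 0.93 (adjusted p = 0.00469), past both thresholds. Without WT PCN replicate 4, the adjusted p of the genotype difference was 0.0702. The brightest *Tlr5* probe moved the same way, with WT PCN at 7.97, 8.18, 7.81, 8.33 and 8.26 and *Pxr*-/- PCN between 6.85 and 7.93 (median 7.57). Its genotype difference under PCN was -0.61 (SE 0.17, adjusted p = 0.170) and its PCN difference in WT was 0.55 (adjusted p = 0.149). In *Pxr*-/- mice, the PCN differences of the 2 probes were 0.29 (adjusted p = 0.341) and 0.23 (adjusted p = 0.140). The PCN effect differed between genotypes by -0.26 on both probes, with unadjusted p of 0.294 and 0.0497 and adjusted p of 0.999, so a different response in the knockout was not shown. *Tlr2* ranged from 7.37 to 9.06 over all arrays, and its differences were 0.38 and 0.02 between genotypes and 0.41 and 0.05 with PCN, none called (lowest adjusted p 0.489).

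**Figure D2:**
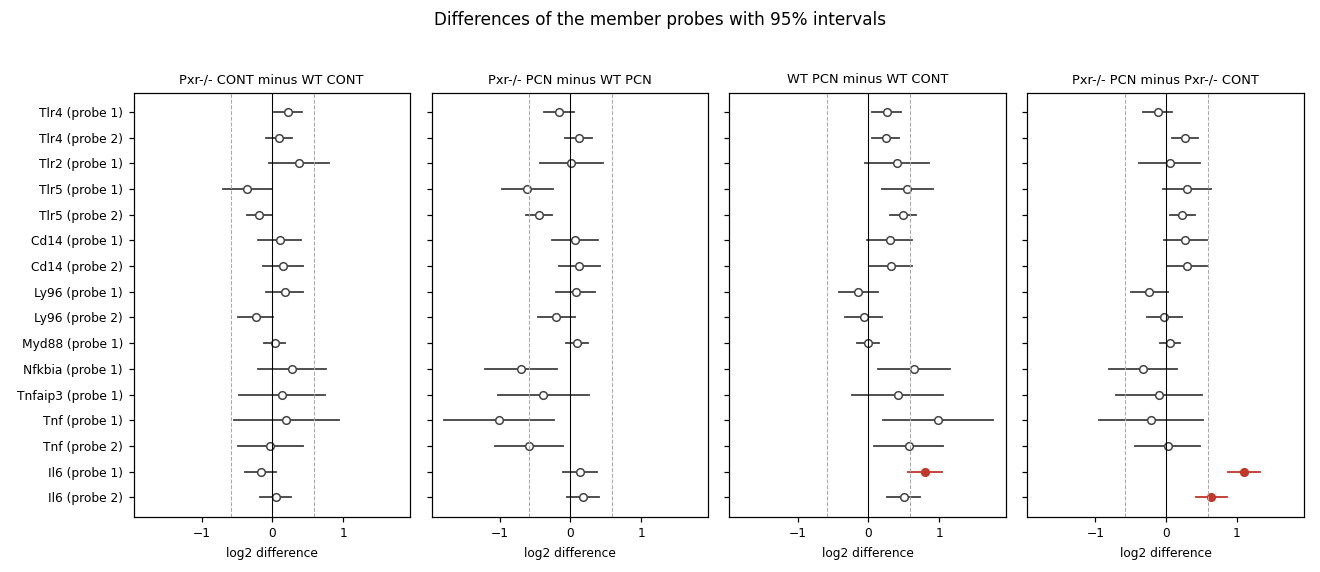
Log2 differences (x axis) of the 16 tested probes (y axis, probe 1 being the brightest) in the comparisons between genotypes and with PCN. Circles are estimates of the limma fit, lines 95% intervals, filled red marks the called probes, and dashed lines the fold of 1.5. Red marks appear at *Il6* with PCN and nowhere between genotypes.

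*Nfkbia*, *Tnfaip3* and *Tnf* varied most among WT PCN mice. The WT PCN arrays, replicates 1 to 5 in this order, read 15.63, 13.63, 13.95, 13.66 and 14.63 for *Nfkbia*. For *Tnfaip3* they read 12.86, 10.39, 10.32, 10.22 and 11.85. For the brightest *Tnf* probe they read 9.77, 6.85, 7.15, 6.37 and 8.17. Replicates 1 and 5 were the highest of all 23 arrays for each of the 3 genes, and replicates 2 to 4 lay within the range of the other groups for *Nfkbia* and *Tnf*. For *Tnfaip3*, 2 of those 3 replicates lay within that range and replicate 4, at 10.22, lay just under it.

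The other groups were tight by comparison. *Nfkbia* had a standard deviation of 0.84 in WT PCN and of 0.19 to 0.29 elsewhere, *Tnfaip3* of 1.18 against 0.13 to 0.30, and *Tnf* of 1.35 against 0.33 to 0.48. With PCN the knockout differed from WT by -0.70 for *Nfkbia* (-1.20 to -0.20, adjusted p = 0.374), by -1.01 for *Tnf* (-1.78 to -0.23, adjusted p = 0.444) and by -0.38 for *Tnfaip3* (-1.03 to 0.26, adjusted p = 0.965). In WT mice the PCN differences were 0.64 (adjusted p = 0.259), 0.99 (adjusted p = 0.262) and 0.42 (adjusted p = 0.661). In *Pxr*-/- mice they were -0.33, -0.22 and -0.11, with adjusted p of 0.453, 0.779 and 0.883. None of these differences was called.

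Without WT PCN replicates 1 and 5, an alternative chosen after the values were seen, the genotype differences under PCN became -0.17 for *Nfkbia*, -0.22 for *Tnf* and 0.39 for *Tnfaip3*. Leaving out replicate 1 alone gave -0.39, -0.53 and 0.01. Both arrays are in wash batch 2, on slides 7 and 8, and the genotype difference under PCN was -0.99 for *Nfkbia* and -1.5 for *Tnf* within that batch, and -0.29 and -0.32 within wash batch 1. Their shares of probes above background, 61.4% and 60.9%, were the lowest of the 23 arrays, next to 61.5% on the nearest other array, and their median spot signals were 95 and 84 (74 to 106.5 over all arrays). On these arrays the neutrophil marker level was 7.78 and 7.50 and the macrophage level 10.77 and 10.84, inside the WT PCN ranges of 7.29 to 7.98 and 10.58 to 11.02. The WT PCN arrays with high B cell markers were others, replicates 2 and 3 (10.19 and 10.29, against 7.25 to 7.40 for the rest). The part of the batch and of the array quality in these differences was not tested.

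**Figure D3:**
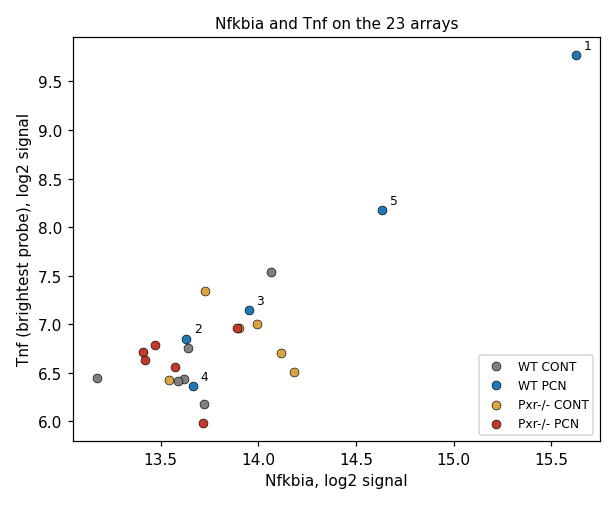
Log2 signal of *Nfkbia* (x axis) against that of the brightest *Tnf* probe (y axis) on the 23 arrays, coloured by group, with the replicate numbers of WT PCN. Replicates 1 and 5 of WT PCN stand at the upper right, at 15.63 and 9.77 and at 14.63 and 8.17, and the other 21 arrays lie together.

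*Il6*, a cytokine made by macrophages, stromal cells and other cells in inflammation, was the single member called, and it rose with PCN in both genotypes. On its brightest probe WT CONT arrays lay between 5.05 and 5.73 (median 5.37) and *Pxr*-/- CONT arrays between 5.02 and 5.45 (median 5.12). The WT PCN arrays read 6.29, 6.38, 5.93, 6.04 and 6.20, and *Pxr*-/- PCN arrays lay between 6.06 and 6.49 (median 6.31). No PCN array overlapped a CONT array of either genotype.

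PCN raised *Il6* by 0.80 in WT mice (SE 0.114, fold 1.74, adjusted p = 0.000329, higher in 5 of 5) and by 1.1 in *Pxr*-/- mice (SE 0.108, fold 2.15, adjusted p = 1.51e-05, higher in 6 of 6). The genotype comparisons and the PCN comparisons share arrays. The call of *Il6* was 1 of 10 genes in either PCN comparison, against 1.05% of all genes called with PCN in WT and 1.47% in *Pxr*-/- mice. That count rests on a probe that passed the filter only through the PCN groups, where it was high. The fitted rises differed by 0.30, knockout minus WT, which on levels this near background is no measure of their relative size (-0.02 to 0.63, unadjusted p = 0.0672, adjusted p = 0.999). Across the 10 genes, 0 were called for a difference between the PCN effects, against 0.118% of all genes, and 3 had an unadjusted p under 0.05 (*Tlr4* through its distant probe, *Nfkbia* and *Tnf*). In the deposited table the rise of *Il6* was 0.79 in WT and 1.09 in *Pxr*-/- mice, both called. Between genotypes *Il6* differed by -0.17 without PCN (-0.39 to 0.06) and by 0.13 with PCN (-0.10 to 0.37).

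The signal of *Il6* was near background, so its folds rest on CONT levels that were mostly not measured above it. Its brightest probe was above background on 1 of 6 WT CONT, 1 of 6 *Pxr*-/- CONT, 5 of 5 WT PCN and 6 of 6 *Pxr*-/- PCN arrays. This probe thus passed the filter only through the PCN groups, so its adjusted p values with PCN are no independent support for the rise. Each CONT array was also counted at no less than the lowest signal called above background on it, a step added after the values were seen. On that count *Il6* was 1.71-fold higher with PCN in WT and 2.08-fold higher in *Pxr*-/- mice. These folds are estimates without an interval and no firm lower bounds. On the background-subtracted processed signal the PCN differences were 2.11 in WT (adjusted p = 0.0101) and 2.83 in *Pxr*-/- mice (adjusted p = 0.000794), and with normexp correction the WT difference fell under the fold of 1.5, so the size of the rise rests on the background treatment. Within wash batches 1 and 2 the rise was 0.70 and 0.87 in WT, with adjusted p of 0.224 and 0.0756, and 0.96 and 1.24 in *Pxr*-/- mice, with adjusted p of 0.0566 and 0.0164. The second *Il6* probe was above background on 0 of 6 arrays of either CONT group, on 2 of 5 WT PCN arrays and on 5 of 6 *Pxr*-/- PCN arrays. It passed the filter only through *Pxr*-/- PCN, where it was highest. The fitted PCN difference of this second probe in limma was 0.50 in WT mice (fold 1.41, adjusted p = 0.0219, not called). In *Pxr*-/- mice it was 0.64 (fold 1.55, adjusted p = 0.00263, past both thresholds). Against the lowest signal called above background on each array, the folds were 1.18 in WT and 1.37 in *Pxr*-/- mice, and these were not tested. Some PCN arrays were not above background either, so these folds are no firm lower bounds.

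**Figure D4:**
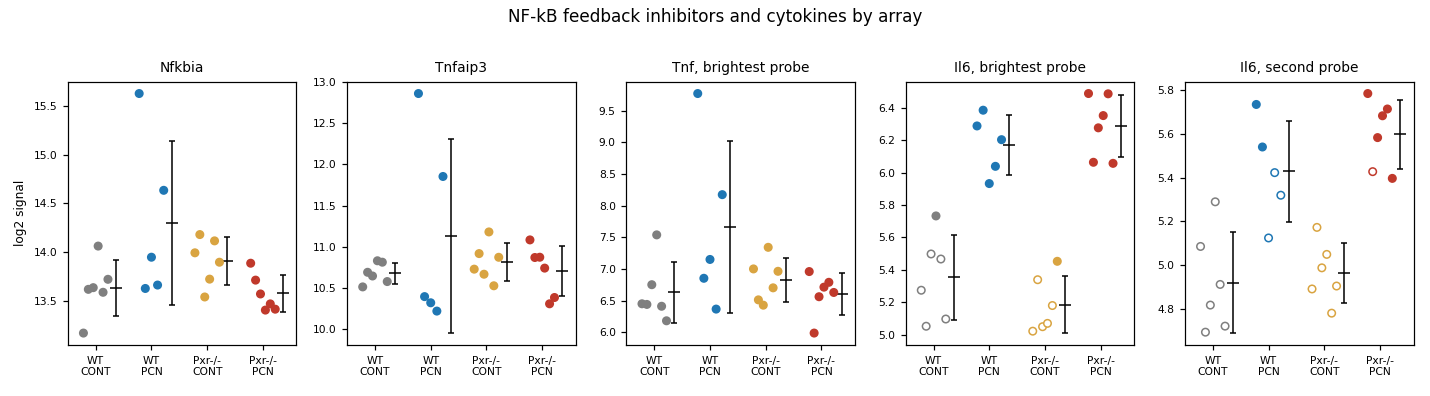
Log2 signal (y axis, a separate scale in each panel) of *Nfkbia*, *Tnfaip3*, *Tnf* and *Il6* probes in the 4 groups (x axis). Points are arrays, open where the probe was not above background, and bars are mean ± SD (n = 6, and n = 5 for WT PCN). On the brightest *Il6* probe all PCN arrays are higher than the CONT arrays, while on the second probe WT PCN and WT CONT arrays overlap. The wide WT PCN bars of the first 3 genes come from replicates 1 and 5.

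Promoter sequence was looked at for these NF-kB genes, since NF-kB binds a short kappaB element. RefSeq promoter windows (GRCm38.p6, 250 bases before to 50 after the transcript start) were at hand for 7 members, all but *Tlr4*, *Cd14* and *Ly96*. The NF-kB kappaB consensus was searched on both strands, with overlapping matches counted. It occurred in windows of 4 members, *Il6*, *Nfkbia*, *Tnfaip3* and *Tlr2*, and in none of *Tnf*, *Tlr5* and *Myd88*. Over all promoters 8.46% of 32851 windows held a match. The stretches around the match nearest the start are shown for the called gene and for both feedback inhibitors, in the direction of the gene and with the match in capitals:
*Il6*, chr5:30013060-30013089, plus strand: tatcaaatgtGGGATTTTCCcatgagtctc
*Nfkbia*, chr12:55492657-55492686, minus strand: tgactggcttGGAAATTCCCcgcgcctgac
*Tnfaip3*, chr10:19015403-19015432, minus strand: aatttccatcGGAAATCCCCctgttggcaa

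These matches lie from 44, 29 and 12 bases before the start, respectively. The *Il6* match is on the strand of the gene. Those of *Nfkbia* and *Tnfaip3* are on the opposite strand, so there the consensus is met by the reverse complement of the printed capitals. A match describes the letters in the window and is no evidence of binding.

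Of 74 further genes of the pathway, 68 were tested. Between genotypes limma called 0 of 68 without PCN and 0 with PCN, against 0.214% and 0.542% of all genes. An unadjusted p under 0.05 was reached by 9 of 68 each time, against 10.3% and 8.51% of all genes. Of these, 8 were higher and 1 lower in the knockout without PCN, and 4 were higher and 5 lower with PCN. Among 20 cytokine, chemokine and other NF-kB target genes, 16 were higher and 4 lower without PCN (median 0.27), and 12 and 8 with PCN (median 0.08). Without PCN 6 of the 20 were higher and 0 lower at that unadjusted p. The 5 NF-kB subunits were all lower without PCN (median -0.13). PCN raised 8 of 68 in WT mice and 4 of 68 in *Pxr*-/- mice and lowered none past the thresholds, against 1.05% and 1.47% of all genes called in either direction. Over all genes, 165 rose and 21 fell in WT and 212 rose and 49 fell in *Pxr*-/- mice. The median difference of the 68 was 0.11 and 0.04, beside -0.0205 and 0.000451 over all genes. The list was chosen with earlier results of these data known, so these shares are no independent support for a response of the pathway.

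The genes that rose in both genotypes were chemoattractants and acute-phase products. *Ccl2*, which attracts monocytes, rose by 1.5 in WT (SE 0.26, adjusted p = 0.00261) and by 1.45 in *Pxr*-/- mice (SE 0.25, adjusted p = 0.00309). Its WT PCN arrays read 9.29, 10.18, 9.92, 8.80 and 9.43 against 7.22 to 8.68 in WT CONT, and *Pxr*-/- PCN lay between 9.38 and 10.13 against 7.70 to 8.72 in *Pxr*-/- CONT. *Cxcl5*, a neutrophil chemoattractant, rose by 1.57 in both (adjusted p = 0.0162 and 0.0095). *Saa3*, an acute-phase apolipoprotein, rose by 1.40 and 1.09 (adjusted p = 0.0219 and 0.0429), and *Lcn2*, which binds bacterial siderophores, rose by 0.78 and 0.76 (adjusted p = 0.0100 and 0.00721).

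The remaining 4 were called in WT mice: *Tlr1*, the partner of TLR2, by 0.72 (adjusted p = 0.00683), the adhesion molecules *Icam1* by 0.60 (adjusted p = 0.00776) and *Vcam1* by 0.67 (adjusted p = 0.0117), and *Tnfaip2*, a TNF-induced gene, by 0.60 (adjusted p = 0.0425). The call of *Tnfaip2* was the least stable of these: it was lost in 14 of 23 fits that left out 1 array and in 10 of 17 other settings. With 1 array left out the WT call of *Saa3* was lost in 6 of 23 fits and its call in *Pxr*-/- mice in 10 of 23. The WT calls of *Icam1* were lost without WT CONT replicate 2 or 6 or WT PCN replicate 5, and those of *Cxcl5* and *Vcam1* without WT PCN replicate 3. In *Pxr*-/- mice the PCN differences of *Tlr1*, *Icam1*, *Vcam1* and *Tnfaip2* were -0.12, 0.30, 0.43 and 0.17. The difference between genotypes in the PCN effect was -0.83 for *Tlr1* (unadjusted p = 0.000237, adjusted p = 0.168), and it was called for no gene of the pathway. Without WT CONT replicate 4 it was called for *Tlr1* (-0.93, adjusted p = 0.0473). Without WT PCN replicates 1 and 5 the WT count was 3, *Tlr1*, *Ccl2* and *Vcam1*. By role, the genes called in WT were 7 of 20 targets and 1 of 9 other TLRs, with 0 of 18 adaptors and kinases, 0 of 5 NF-kB subunits and 0 of 16 inhibitors.

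Between genotypes without PCN, *Ccl4*, a chemokine of T cells and macrophages singled out after its values were seen, came closest to a call, 0.71 higher in the knockout (SE 0.156, adjusted p = 0.0563, higher in 6 of 6). It was called when any 1 of 4 arrays was left out: WT CONT replicate 1, WT PCN replicate 3 or 5, or *Pxr*-/- PCN replicate 5. The T cell marker level was also higher there, 9.96 to 10.38 in *Pxr*-/- CONT against 9.47 to 9.93 in WT CONT. Of 7 markers, 6 were higher and 1 was lower (-0.32), each at an unadjusted p under 0.05 in limma. Only 1 of the 7 (*Lck*) was called, against 0.214% of all genes. The part of the T cell markers in the *Ccl4* difference was not tested.

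**Figure D5:**
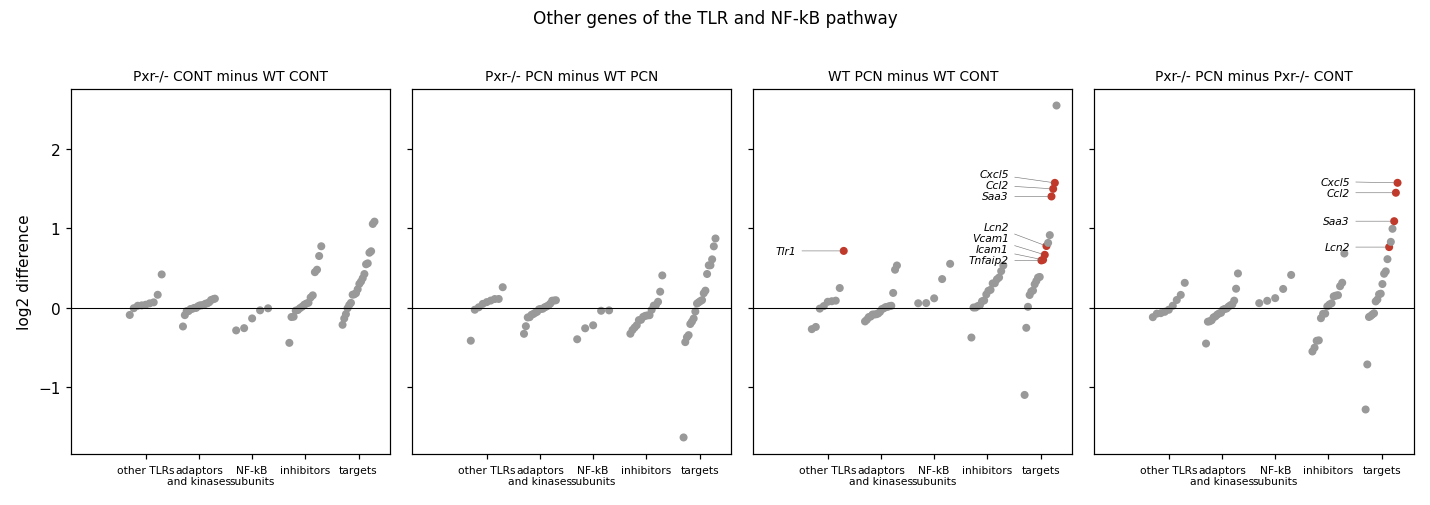
Log2 differences (y axis) of the 68 other tested genes of the pathway, sorted by role (x axis), with 1 point per gene and called genes in red with their names. Calls appear with PCN, 8 in WT and 4 in *Pxr*-/- mice, and in neither comparison between genotypes.

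Markers of some immune and stromal cells moved with PCN beside *Il6*. The neutrophil level, a mean over 10 of 11 listed markers, was 6.81 to 7.22 in WT CONT, 7.29 to 7.98 in WT PCN, 7.0 to 7.35 in *Pxr*-/- CONT and 7.53 to 8.40 in *Pxr*-/- PCN, so that PCN and CONT arrays did not overlap within a genotype. Of these markers 2 were called higher in WT (*S100a8* and *S100a9*) and 4 in *Pxr*-/- mice (those together with *Retnlg* and *Stfa2l1*), against 1.05% and 1.47% of all genes called. The rises were concentrated in these few: the median difference over the 10 markers was 0.34 in WT and 0.44 in *Pxr*-/- mice, against 2.16 and 2.91 for *S100a9*. Of the 10, 1 was lower in WT and 3 were lower in *Pxr*-/- mice, and the defining marker *Ly6g* read -0.26 and -0.23 (adjusted p = 0.371 and 0.247). The macrophage level was 10.56 to 10.78, 10.58 to 11.02, 10.40 to 10.88 and 10.67 to 11.04 in the same order of groups. Of its 12 markers, 9 were higher and 3 lower in WT, and 10 were higher and 2 lower in *Pxr*-/- mice. Rises at an unadjusted p under 0.05 numbered 3 and 7, against 14.9% and 23.2% of all genes in either direction, and 0 and 1 were called. Fibroblast markers were called higher for 1 of 7 in WT and 3 of 7 in *Pxr*-/- mice, and smooth muscle markers for 0 and 3 of 7. T cell markers had a median PCN difference of 0.00 in WT and of -0.34 in *Pxr*-/- mice, where 6 of 7 were lower, 4 of them at an unadjusted p under 0.05, and 0 called. B cell markers were higher with PCN in WT for 7 of 7, each at an unadjusted p under 0.05 and 0 called (median 1.42), with the high levels on replicates 2 and 3, and in *Pxr*-/- mice for 6 of 7 (median 0.47). Over the 23 arrays, *Il6* correlated with the neutrophil level at 0.87 and with the macrophage level at 0.61. The RefSeq mRNA probe of *Tlr4* correlated with the macrophage, neutrophil and B cell levels at 0.71, 0.67 and 0.004. Its distant probe correlated with the same levels at -0.42, 0.21 and 0.56. These are descriptions over arrays that share group and wash batch, and the part of the markers in the rise of *Il6* was not tested.

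The genes whose signals followed *Tlr4* most closely over the 23 arrays also depended on the probe. For the distant probe they were *Etohd2* (Pearson r = 0.86), *Usb1* (0.85), *1700080N15Rik* (0.85), *Grm2* (0.84) and *Tnfrsf22* (0.83). For the RefSeq mRNA probe they were *C4b*, a complement component (0.89), *Clec10a*, a macrophage lectin (0.86), *Casp12* (0.84), *H6pd* (0.80) and *Ecscr* (0.80). No gene was on both lists.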

How the data were processed

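Cy3-labelled cRNA from 150 ng of total RNA was hybridised to single-colour Agilent arrays, and per the file headers the values are spot and local background intensity, with a processed signal corrected for background by Agilent Feature Extraction 10.10.1.1. A table of log2 values deposited by the authors (37161 probes) had been filtered, corrected for wash batch and normalized between arrays with CrossNorm. The filter rule is not given in the sources used here. It held the 16 tested member probes and was used as an alternative.

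Here log2 median signals without controls and outlier spots were averaged per probe and quantile normalized. Of 56605 probes, 37591 were tested, being well above background on at least 50% of the arrays of a group. limma 3.58.1 (R 4.3.3) was fitted to all 23 arrays with group and wash batch, 2-sided, with Benjamini-Hochberg adjustment over all tested probes. The number of arrays limits the precision. Symbols and gene coordinates came from RefSeq, and probe coordinates are those of the array annotation (mm9). Whether probes lie in exons or UTRs was not analysed here. The fit was tested on simulated data. A further 18 settings and leaving out each array were tried.

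Named genes were the 10 members, pathway genes called in any comparison, the 5 genes most correlated with the brightest *Tlr4* probe (and, chosen after values were seen, with its RefSeq mRNA probe), and *Nr1i2*, *Cyp3a11* and *Cyp2c55*. *Ccl4*, *Ccl3* and the named cell type markers fall outside this rule and were named after their values were seen. A gene was represented by its brightest tested probe. The members and all lists were chosen with earlier results of these data known.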

Additional observations from a re-analysis of the deposited data

Results flagged for a closer look

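Of 68 probe and group combinations of the members, 4 had an array far from the rest of its group, close to the 1 in 20 that chance gives. The second *Tlr5* probe read 5.40 in WT CONT replicate 1, where the nearest other array read 5.77. The *Ly96* repeat probe read 14.38 in WT CONT replicate 6, above the next array at 14.11. *Myd88* read 11.36 in *Pxr*-/- PCN replicate 5, below the next array at 11.52. The second *Tnf* probe read 7.07 in WT CONT replicate 4, above the next array at 6.49, and the brightest *Tnf* probe was also highest in that mouse among WT CONT, at 7.54.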

How the results depend on the processing

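Counts of called members stayed at 0 between genotypes and at 0 for the difference of the PCN effects under every setting tried. The count with PCN, 1 (*Il6*), was 0 in WT with normexp correction and within wash batches 1 and 2, and 0 in *Pxr*-/- mice within wash batch 1. Within a batch only 2 or 3 arrays per group remained. The 8 pathway genes called with PCN in WT became 4 with median centring, 5 with the replicate block, 5 with only the groups compared, 3 without WT PCN replicates 1 and 5, and 0 within wash batches 1 and 2. Leaving out 1 array gave 5 to 10, the 5 without WT CONT replicate 2 or 6 or WT PCN replicate 5. The 4 called in *Pxr*-/- mice became 0 within either batch and were 3 to 5 with 1 array left out. Between genotypes without PCN the 0 became 2 with slide as a fixed block, 1 with slide as a random block, 1 with only the groups compared, 1 without WT PCN replicates 1 and 5 or 2 and 3, and 0 to 1 with 1 array left out. With PCN the 0 became 2 without WT PCN replicates 1 and 5, and was 0 to 2 with 1 array left out, the 2 (*Ccl3* and *Ccl4*) without WT PCN replicate 5. The cause was not tested. No called value changed sign. Replicate numbers did not pair the arrays: deviations of same-numbered arrays correlated at -0.27 to 0.35 (median -0.03), 5 of 33 pairs above 0.1, and the block changed no other count by more than 1.5 times. Signal over background limits *Il6*, the second *Tlr5* probe and the dimmest *Tlr4* probe.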
